A study of Mus musculus with 24 samples.

Results

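The nuclear genes of oxidative phosphorylation were followed across the nucleus accumbens (NAc), a ventral striatal region of reward, of 24 C57BL/6 mice of 50 days of age. Members were the protein-coding nuclear genes whose symbol begins with Nduf, Uqcr, Cox4 to Cox8 or Atp5, or is Sdha to Sdhd or Cyc1, with a mean sense-strand count of at least 10 over the 24 libraries. The rule found 91 genes among the 52636 in the files, of which 20696 reached that mean. Complex I held 44 of them, complex II 4, complex III 9, complex IV 17 and complex V 17. Ndufa4 and its paralogue Ndufa4l2 were counted with complex IV, where the Ndufa4 protein resides despite its symbol. Cox7b2 fell just short with a mean count of 9.5, and Cox8b with 3.96 and Cox8c with 0.167 lay well below the minimum. All 91 members passed the filter on low counts in every comparison.

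There were 6 control (Con) females, 6 females exposed early in life to MSUS (maternal separation plus unpredictable stress of the mother), 6 Con males and 6 MSUS males, with both sides of the NAc of 1 animal in each library. Con litters received no stress. MSUS litters were separated from the dam on postnatal days 1 to 14, for 2 h per day in the series' description and for longer in the study's methods. The NAc was taken as a tissue punch, so each value is an average over all cells in the punch, and fewer cells of a type cannot be told apart from less RNA per cell.

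Oxidative phosphorylation is carried out in the inner mitochondrial membrane. Complexes I and II pass electrons from NADH and succinate to ubiquinone, complex III passes them on to cytochrome c, and complex IV transfers them to oxygen. Complexes I, III and IV pump protons, and complex V, the ATP synthase, uses the resulting gradient to make ATP. Complexes I, III, IV and V combine subunits encoded in the nucleus with a few encoded in the mitochondrial genome, while complex II is wholly nuclear. Neurons draw most of their ATP from this pathway, and several subunits of complex IV exist as paralogues with tissue-specific expression.

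Sense-strand counts summed to between 39923666 and 70575745 per library. Markers of striatal projection neurons, such as Drd1 and Penk, were abundant in every library, with a summed level of 2358 to 6435 CPM (counts scaled to a common library size, with TMM normalization). The share of uniquely mapped read pairs that fell in no annotated exon, called the no-gene share below, ran from 29.99% to 33.8% for the Con females and from 35.3% to 42.9% for the MSUS females, so these groups did not overlap. Con males had 33.7% to 39.7% and MSUS males 31.2% to 43.7%. Markers of cortical excitatory neurons, such as Slc17a7 and Tbr1, had a summed level of 256 to 1606 CPM for Con females (median 595) and of 129 to 724 CPM for MSUS females (median 213). Con males had 163 to 1125 CPM and MSUS males 173 to 1628 CPM. In females 2 of these 9 markers were called lower in MSUS, beside 11.9% of all genes called lower and 13.1% higher. So were 4 of 6 markers of mature oligodendrocytes, namely Mbp, Mog, Mag and Mobp. The 6 had a summed level of 3738 to 5734 CPM for Con females and 3431 to 4194 CPM for MSUS females. Of 6 astrocyte markers 1 was called lower, and 0 of 10 striatal, 0 of 3 oligodendrocyte precursor, 0 of 5 microglial and 0 of 5 endothelial markers were called by edgeR. Of 7 long non-coding RNAs retained in the nucleus, 5 were called higher in MSUS females, among them Malat1 and Meg3, and 0 lower. Log2 fold changes over the 7 ran from −0.31 to 0.47. Their summed level was 15548 to 18330 CPM for Con females and 19247 to 21964 CPM for MSUS females. In females the no-gene share and the sum of these nuclear RNAs differed between the groups without overlap. The cortical and mature oligodendrocyte sums differed in the median but overlapped. These measures stand beside each female result that follows.

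Per kilobase of exon, the members were among the more abundant genes of the NAc. Their median level was 35.4 RPKM over the 24 libraries, against 2.604 RPKM over the 21450 genes with enough counts in the 24 libraries, and 85 of the 91 lay above that median. Their transcripts were short, with a median exonic length of 1675 bases against 3429. Complex IV had the highest median, 66.4 RPKM, followed by complex III with 48.2, complex V with 35.2, complex II with 34.5 and complex I with 27.1. Cox8a, a small membrane subunit of complex IV, was the highest member at 219 RPKM, and Atp5a1 and Atp5b, which encode the α and β subunits of the catalytic ATP synthase head, followed at 192 and 175. Cox4i1, the largest nuclear subunit of complex IV, stood at 171 RPKM. The flavoprotein Sdha led complex II with 73.4 RPKM, Uqcr11 led complex III with 105 and Ndufa1 led complex I with 80.5. The lowest member was Cox6b2, a testis form of a complex IV subunit, at 0.56 RPKM, followed by 4 other low forms of complex IV. Complex I was lowest at its assembly factor Ndufaf2, with 2.43 RPKM, and complex V at Atp5s, with 4.62. When the longest transcript of each gene was taken in place of all exons, the lead passed to Ndufb9 in complex I, Cox4i1 in complex IV and Atp5b in complex V, so the order among the highest genes rested on the gene model.

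**Figure D1:**
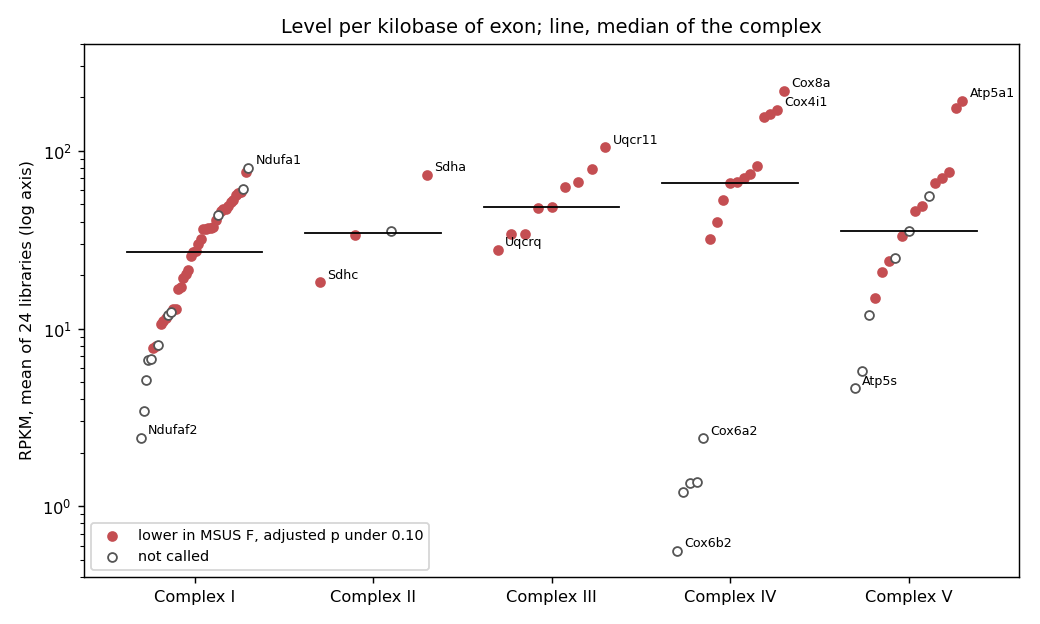
Level of each of the 91 genes in RPKM on a log axis, as the mean of 24 libraries, by complex. Lines mark the complex medians, from 27.1 RPKM in complex I to 66.4 in complex IV, filled points are genes called lower in MSUS females, and the 5 low genes of complex IV, at 0.56 to 2.41 RPKM, were not called.

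Promoters of nuclear respiratory genes are known as sites of NRF1 and of the ETS factor GABP, also called NRF2. RefSeq promoter windows on GRCm38.p6, from 250 bases before to 50 after the start site, were found for 72 of the 91 members. The NRF1 letters, GCGCA and GCGC with any 1 base between them, stood on either strand in 19 of the 72 (26.4%) and in 5.19% of 27025 genes with a window. CCGGAAG, the ETS core, stood in 18 (25.0%) against 9.93%, and AAGATGGCG of YY1 in 8 (11.1%) against 1.64%. CCCCGCCC, bound by Klf and Sp factors, stood in 14 (19.4%) against 19.6%, AAGGTCA of ESRRA in 8 (11.1%) against 5.38%, and TATAAA in 5 (6.94%) against 15.7%. NRF1 letters were in 9 of 39 complex I promoters, 2 of 3 in complex II, 1 of 5 in complex III, 1 of 12 in complex IV and 6 of 13 in complex V. A match of letters is a description and does not show binding.

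One promoter of each complex is shown as the 120 bases before the start site, 5′ to 3′ on the gene's strand, with NRF1 and ETS letters in capitals. They were chosen because they hold such letters and belong to genes described with the results. Within these bases, Cox6a1 has an NRF1 match and an ETS match, Sdha 3 NRF1 matches in a row, Ndufa5 1 NRF1 match, and Uqcr11 and Atp5h 1 ETS match each. Farther upstream in the full windows, and not printed, Cox6a1 has another NRF1 match and Atp5h has 1.
Ndufa5 (complex I; GRCm38.p6, chr6:24527691-24527810, minus strand): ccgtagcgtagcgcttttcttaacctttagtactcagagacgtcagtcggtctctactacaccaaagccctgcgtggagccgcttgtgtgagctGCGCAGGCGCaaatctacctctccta
Sdha (complex II; chr13:74350241-74350360, minus strand): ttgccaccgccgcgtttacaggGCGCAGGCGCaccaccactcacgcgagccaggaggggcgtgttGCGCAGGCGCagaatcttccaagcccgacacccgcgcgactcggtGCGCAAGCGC
Uqcr11 (complex III; chr10:80406822-80406941, minus strand): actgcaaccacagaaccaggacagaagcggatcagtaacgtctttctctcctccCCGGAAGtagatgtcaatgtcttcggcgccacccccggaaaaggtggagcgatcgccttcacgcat
Cox6a1 (complex IV; chr5:115348959-115349078, minus strand): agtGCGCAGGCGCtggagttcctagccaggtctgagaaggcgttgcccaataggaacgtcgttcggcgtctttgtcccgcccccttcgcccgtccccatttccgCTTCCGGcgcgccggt
Atp5h (complex V; chr11:115419920-115420039, minus strand): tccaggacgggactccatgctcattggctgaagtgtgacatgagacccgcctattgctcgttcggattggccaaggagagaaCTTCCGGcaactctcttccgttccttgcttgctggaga

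To ask whether early-life stress changed these genes, MSUS was compared with Con within each sex. In females, genes of every complex were lower in MSUS. Of the 91 members, 68 were called lower and 0 higher at an adjusted p under 0.10 (edgeR's quasi-likelihood test, Benjamini-Hochberg over 20571 genes), while 11.9% of all genes tested were called lower and 13.1% higher, 25.1% in all. An unadjusted p under 0.05 was found for 70 members and for 32.7% of all genes. A negative log2 fold change was found for 84 members, against 50.6% of all genes. For 45 members every MSUS female lay below every Con female, which was so for 3.6% of all genes. Their median log2 fold change was −0.15, and that of all genes was −0.003. Summed over the 91 genes, the Con females had 7474 ± 243 CPM and the MSUS females 6651 ± 181 CPM (SD, n = 6), a ratio of 0.89, and the ranges of 7227 to 7887 and 6449 to 6907 CPM did not overlap. As a share of sense counts, without TMM, the sum was 0.730% ± 0.0116 in Con females and 0.674% ± 0.0116 in MSUS females. This relative difference was smaller, so its size depended on the scaling, and the ranges again did not overlap.

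By complex, the summed level of complex IV differed most in relative terms. Con females had 1485 ± 66.4 CPM and MSUS females 1272 ± 44.8 CPM, 14.3% less. For complex III the sums were 751 ± 30.9 and 660 ± 18.98 CPM (12.1% less), and for complex V 2604 ± 96.3 and 2309 ± 74.2 CPM (11.3% less). Complex I had 2138 ± 51.2 and 1949 ± 47.9 CPM (8.86% less), and complex II 496 ± 11.3 and 462 ± 8.16 CPM (6.87% less). The Con and MSUS females did not overlap in any of the 5 sums. As shares of sense counts, without TMM, the relative differences were smaller in every complex, with 0.0484% and 0.0468% for complex II and 0.145% and 0.129% for complex IV. Differences between complexes were not tested, since members of a complex are not replicates. The gene with the largest change in each complex was Ndufb9 (GRCm38, chr15:58933756-58939488), Sdhb (chr4:140961203-140979193), Uqcr11 (chr10:80402997-80406830), Cox6a1 (chr5:115345642-115348981) and Atp5d (chr10:80138632-80145818), whose counts cover all annotated exons, untranslated regions included.

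**Figure D2:**
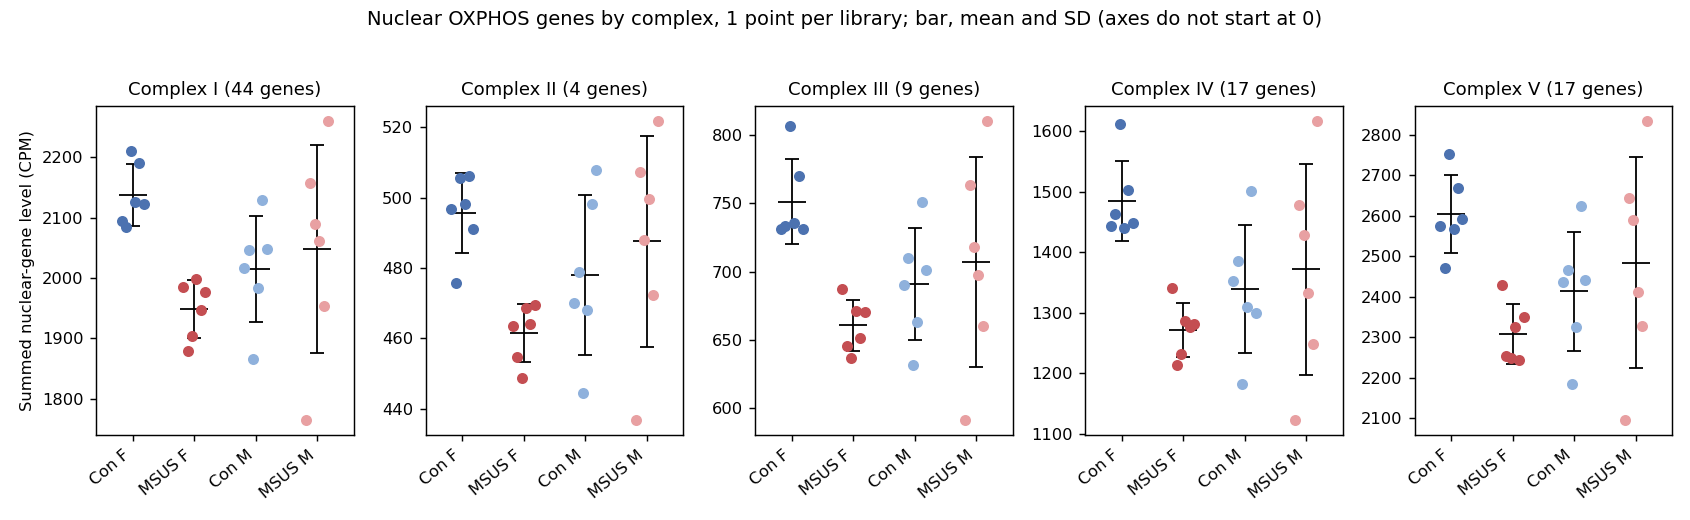
Summed level of the nuclear genes of each complex in CPM, 1 point per library and 4 groups of 6, with the mean and SD as bars. In complexes I to V the MSUS females lie below all Con females, and the 2 male groups overlap each other.

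With the no-gene share as a covariate, no gene of the whole table was called in females, members included. The median log2 fold change of the members was then −0.08 instead of −0.15, and 78 of the 91 stayed below 0. An unadjusted p under 0.05 was found for 8 members, against 5.70% of all genes in that fit. With the cortical marker score as a covariate, 48 members were called, all lower, against 9.003% of all genes called and 3.524% called lower. Of these 48 members 47 were among the 68, and the median of the members was −0.15. With both covariates 0 were called, 2 had an unadjusted p under 0.05, against 2.43% of all genes, and the median was −0.07. The no-gene share and the MSUS groups cannot be told apart in these females, because the groups do not overlap in it.

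**Figure D3:**
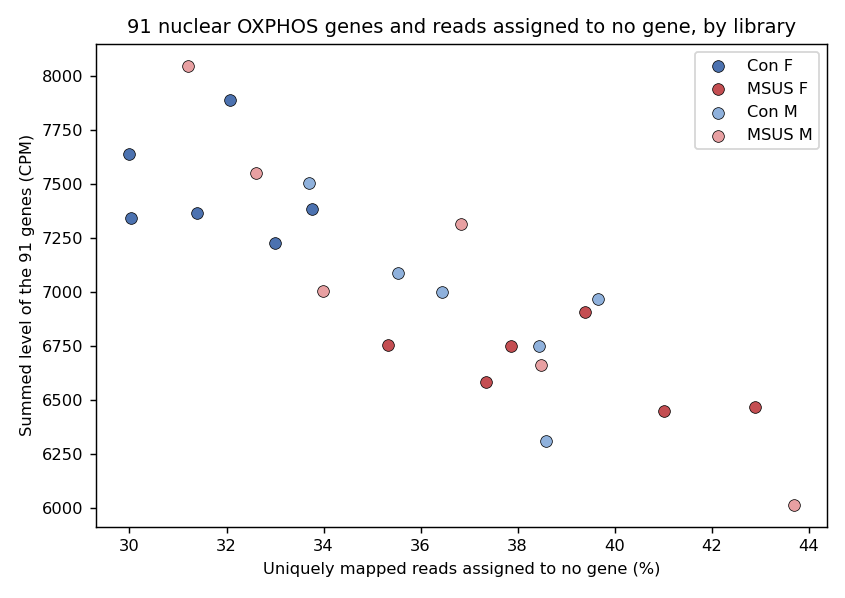
Summed level of the 91 genes in CPM against the share of uniquely mapped read pairs assigned to no gene, 1 point per library, coloured by group. Con females lie at 29.99% to 33.8% with 7227 to 7887 CPM and MSUS females at 35.3% to 42.9% with 6449 to 6907 CPM, while the male groups overlap each other on both axes.

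Complex I oxidizes NADH through the nuclear core subunits of its peripheral arm, and those described here were lower in MSUS females. Ndufs8, which binds iron-sulfur clusters, was at 48.7 to 52.0 CPM in Con females (median 49.6) and 41.5 to 45.1 in MSUS females (median 43.5), with no overlap (log2 fold change −0.19, SE 0.029, adjusted p = 0.00309). Ndufv1, the NADH-binding subunit, was at 102 to 110 CPM (median 103) and 88.5 to 97.8 CPM (median 92.1), again apart (−0.17, SE 0.034, adjusted p = 0.00792). Ndufs7 (−0.19) also did not overlap. Ndufs1, the largest core subunit, changed least, from 129 to 142 CPM (median 138) in Con females to 126 to 133 CPM (median 129) in MSUS females, with overlap (−0.08, SE 0.029, adjusted p = 0.0780).

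Of the 29 supernumerary subunits, which surround the core and take no direct part in electron transfer, 24 were called lower. Ndufb9 fell most, from 81.1 to 89.0 CPM (median 85.2) in Con females to 67.5 to 74.4 CPM (median 71.9) in MSUS females, with no overlap (log2 fold change −0.25, SE 0.034, adjusted p = 0.00194). Ndufa5 was at 50.8 to 54.5 CPM (median 52.1) and 43.4 to 48.4 CPM (median 45.6), also without overlap (−0.19, SE 0.032, adjusted p = 0.00416). The 5 that did not pass were Ndufa1 (−0.13), Ndufb6 (−0.08), Ndufc2 (−0.06), Ndufab1 (−0.03) and Ndufb2 (0.02). Ndufab1, the mitochondrial acyl carrier protein, was at 44.4 to 49.2 CPM in Con females and 43.9 to 47.7 in MSUS females. Among the 3 X-linked members, Ndufb11 (−0.17, adjusted p = 0.00490) and Cox7b of complex IV (−0.24, adjusted p = 0.0145) passed, and Ndufa1 did not (adjusted p = 0.108).

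The assembly factors of complex I, which build the complex and are not part of it, had values in both directions. Of the 8, 2 were called, both lower, a share close to the 25.1% of all genes called. They were low genes, with Con female means from 5.85 CPM for Ndufaf6 to 27.7 CPM for Ndufaf7, and fewer of the low members were called (below). With 8 genes, nothing about the class is read from this count. Ndufaf8 was at 6.96 to 7.65 CPM in Con females and 6.01 to 7.02 in MSUS females (log2 fold change −0.19, SE 0.053, adjusted p = 0.0292), and Ndufaf3 had −0.14 (adjusted p = 0.0358). Ndufaf6, Ndufaf4, Ndufaf7 and Ndufaf1 had values above 0, with the largest for Ndufaf6 at 0.17 (adjusted p = 0.116). The median over the 8 was −0.01, against −0.14 over the 36 subunits of the complex.

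Complex II, succinate dehydrogenase, also serves the tricarboxylic acid (TCA) cycle. Sdhb, its iron-sulfur subunit, was at 78.0 to 81.7 CPM in Con females (median 79.4) and 69.9 to 74.9 in MSUS females (median 71.4), with no overlap (log2 fold change −0.14, SE 0.027, adjusted p = 0.00720). Sdha was at 297 to 319 CPM (median 310) and 278 to 296 CPM (median 293), also apart but by less (−0.09, SE 0.030, adjusted p = 0.0656). The membrane anchors Sdhc (−0.12, adjusted p = 0.0524) and Sdhd (−0.07, adjusted p = 0.212) overlapped, and Sdhd was not called.

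All 9 nuclear genes of complex III were called lower. Cyc1, the cytochrome c1 heme protein, was at 74.8 to 89.0 CPM in Con females (median 76.6) and 65.0 to 69.8 in MSUS females (median 67.3), without overlap (log2 fold change −0.23, SE 0.043, adjusted p = 0.00652). The Rieske iron-sulfur protein Uqcrfs1 was at 67.8 to 73.1 CPM (median 69.2) and 59.6 to 65.2 CPM (median 62.0), with no overlap (−0.17, SE 0.031, adjusted p = 0.00614). Among the small subunits, Uqcr11 fell most, from 69.7 to 81.0 CPM (median 74.8) to 60.6 to 67.0 CPM (median 62.8). Its log2 fold change was −0.23 (SE 0.038, adjusted p = 0.00362), and Uqcr10 and Uqcrq had the same rounded value. The core protein Uqcrc1 had −0.19 and its partner Uqcrc2 −0.11. Uqcrb was nearest to 0 at −0.08 (adjusted p = 0.0890).

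In complex IV, 12 of 17 genes were called lower and all 17 had values below 0. Cox6a1, a regulatory subunit, fell most of the 91 members. It was at 125 to 144 CPM in Con females (median 129) and 96.7 to 110 in MSUS females (median 104), with no overlap (log2 fold change −0.34, SE 0.042, adjusted p = 0.00122). Its value with the no-gene share as a covariate was −0.26 and with the cortical marker score −0.29. Cox8a was at 141 to 168 CPM (median 151) and 119 to 133 CPM (median 125), also apart (−0.28, SE 0.045, adjusted p = 0.00351). Cox4i1 was at 274 to 304 CPM (median 286) and 236 to 258 CPM (median 245), without overlap (−0.22, SE 0.035, adjusted p = 0.00309). Cox6b1, Cox7a2, Cox5a, Cox5b, Cox7b and Cox7c also had no overlap, with values between −0.16 and −0.24. Ndufa4 (−0.18), Cox6c (−0.16) and Cox7a2l, a factor that joins complexes III and IV (−0.11), were called with overlapping groups.

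The 5 uncalled genes of complex IV were the low forms Cox4i2, Cox6a2, Cox7a1, Cox6b2 and Ndufa4l2, known from lung, muscle, testis and hypoxic cells. Their levels per length were 0.56 to 2.41 RPKM, and their log2 fold changes in females ran from −0.27 for Cox6a2 to −0.05 for Cox6b2, with standard errors of 0.12 to 0.19. Beside its partner, Cox4i2 made up 0.787% ± 0.077 of the Cox4 level per length for Con females and 0.802% ± 0.129 for MSUS females (SD, n = 6). Cox6a2 made up 1.40% ± 0.204 and 1.47% ± 0.133 of the Cox6a level. Cox7a1 made up 1.39% ± 0.349 of Cox7a1 plus Cox7a2 for Con females and 1.52% ± 0.175 for MSUS females, and Ndufa4l2 1.79% ± 0.304 and 1.81% ± 0.209 beside Ndufa4. The ranges overlapped for all 4 shares in both sexes.

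**Figure D4:**
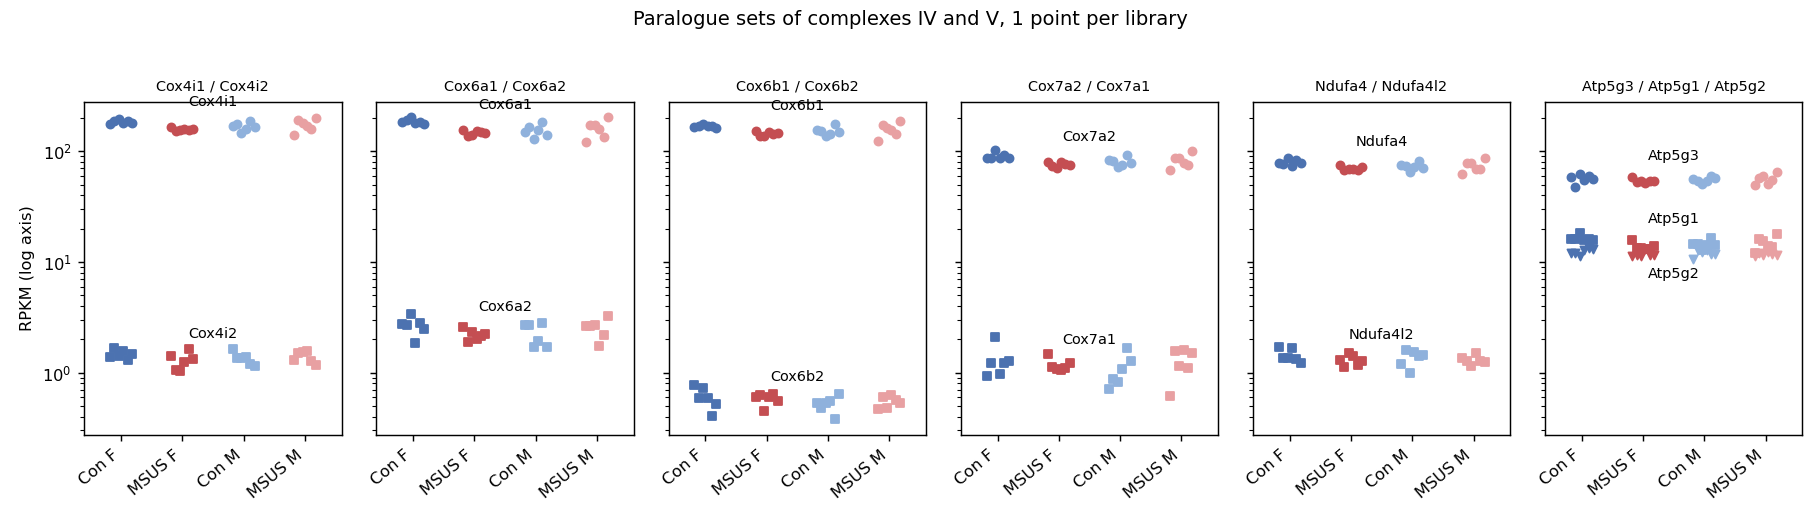
Level per kilobase of exon in RPKM on a log axis for 5 paralogue sets of complex IV and the 3 genes of the ATP synthase c-ring, 1 point per library and 4 groups. The second form of each complex IV pair lies at 0.56 to 2.41 RPKM on average, and in the c-ring Atp5g3 lies above Atp5g1 and Atp5g2 in all 24 libraries.

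The ATP synthase was split by part. All 5 genes of the F1 head were lower without overlap. Atp5b was at 768 to 844 CPM in Con females (median 788) and 648 to 734 in MSUS females (median 684), the largest difference in CPM of any member (log2 fold change −0.21, SE 0.039, adjusted p = 0.00652). Atp5d, the δ subunit of the central stalk, fell most, from 102 to 114 CPM (median 105) to 82.7 to 94.0 CPM (median 89.7; −0.26, SE 0.041, adjusted p = 0.00324). Atp5e had −0.22, Atp5a1 −0.16 and Atp5c1 −0.12. Of the 8 genes of the peripheral stalk and membrane part, 5 were called. Atp5o, which links the stalk to the head, was at 94.96 to 105 CPM (median 95.7) and 80.6 to 85.7 CPM (median 84.0), without overlap (−0.22, SE 0.033, adjusted p = 0.00281). Atp5k, Atp5mpl, Atp5h and Atp5j2 were also called, while Atp5f1 (−0.11), Atp5j (−0.10) and Atp5l (0.01) were not. Atp5l was at 32.6 to 38.3 CPM in Con females and 34.8 to 39.0 in MSUS females.

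The proton-carrying c-ring is made from 1 protein encoded by 3 genes, of which 1 was called. Differences between the 3 were not tested. Atp5g1 was at 76.8 to 90.2 CPM in Con females (median 78.9) and 63.9 to 77.6 in MSUS females (median 65.9), called with overlap (log2 fold change −0.24, SE 0.052, adjusted p = 0.0117). Atp5g2 (−0.09, adjusted p = 0.244) and Atp5g3 (−0.06, adjusted p = 0.437) were not called. Per length, Atp5g3 made up 66.2% ± 1.69 of the 3 genes for Con females and 67.9% ± 0.771 for MSUS females, and Atp5g1 19.1% ± 1.15 and 17.3% ± 0.720 (SD, n = 6). The ranges of both shares overlapped, at 63.1% to 67.9% and 66.5% to 68.6% for Atp5g3 and 18.2% to 21.2% and 16.6% to 18.5% for Atp5g1. Atp5s, a coupling factor apart from the enzyme, was not called (0.05, adjusted p = 0.723).

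Fewer of the low members were called. Of the 23 members with the lowest level per length, 0.56 to 12.9 RPKM, 7 were called, and of the 23 highest, 59.1 to 219 RPKM, 21 were. Median log2 fold changes were −0.09 and −0.20. Over 4 bins of rising exonic length, 17, 17, 19 and 15 members were called, and the medians went from −0.19 in the shortest to −0.12 in the longest. The standard error was larger for the 23 uncalled members (median 0.055) than for the 68 called (0.036). Of the promoters with NRF1 letters, 14 of 19 belonged to members called lower, and of those without, 41 of 53, with median log2 fold changes of −0.15 and −0.14. For the ETS letters the counts were 13 of 18 and 42 of 54, with medians of −0.18 and −0.14.

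In males 0 of 91 members were called, and 0% of 20691 genes, by edgeR's quasi-likelihood test, and 0 members had an unadjusted p under 0.05, against 0.923% of all genes. DESeq2 also called 0. Values lay above 0 for 79 members and below 0 for 12, against 48.3% of all genes below 0, with a median log2 fold change of 0.03 against 0.003 over all genes. Con males had a summed level of 6936 ± 395 CPM and MSUS males one of 7098 ± 710 CPM (SD, n = 6). Cox6a1 was at 90.1 to 128 CPM in Con males (median 108) and 86.2 to 144 in MSUS males (median 117), with overlap (log2 fold change 0.07, adjusted p = 1.00). Atp5b was at 639 to 809 CPM (median 745) and 611 to 874 CPM (median 771), also overlapping (0.05). The spread between libraries was wider than in females. The SD of a member was at the median 4.52% of its mean among Con females and 3.90% among MSUS females, but 6.29% among Con males and 10.2% among MSUS males. MSUS male 1, which had the highest no-gene share of all libraries (43.7%), had the lowest summed level of the 91 genes, 6014 CPM, and MSUS male 6, with the lowest share of its group (31.2%), had the highest of all, 8045 CPM.

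**Figure D5:**
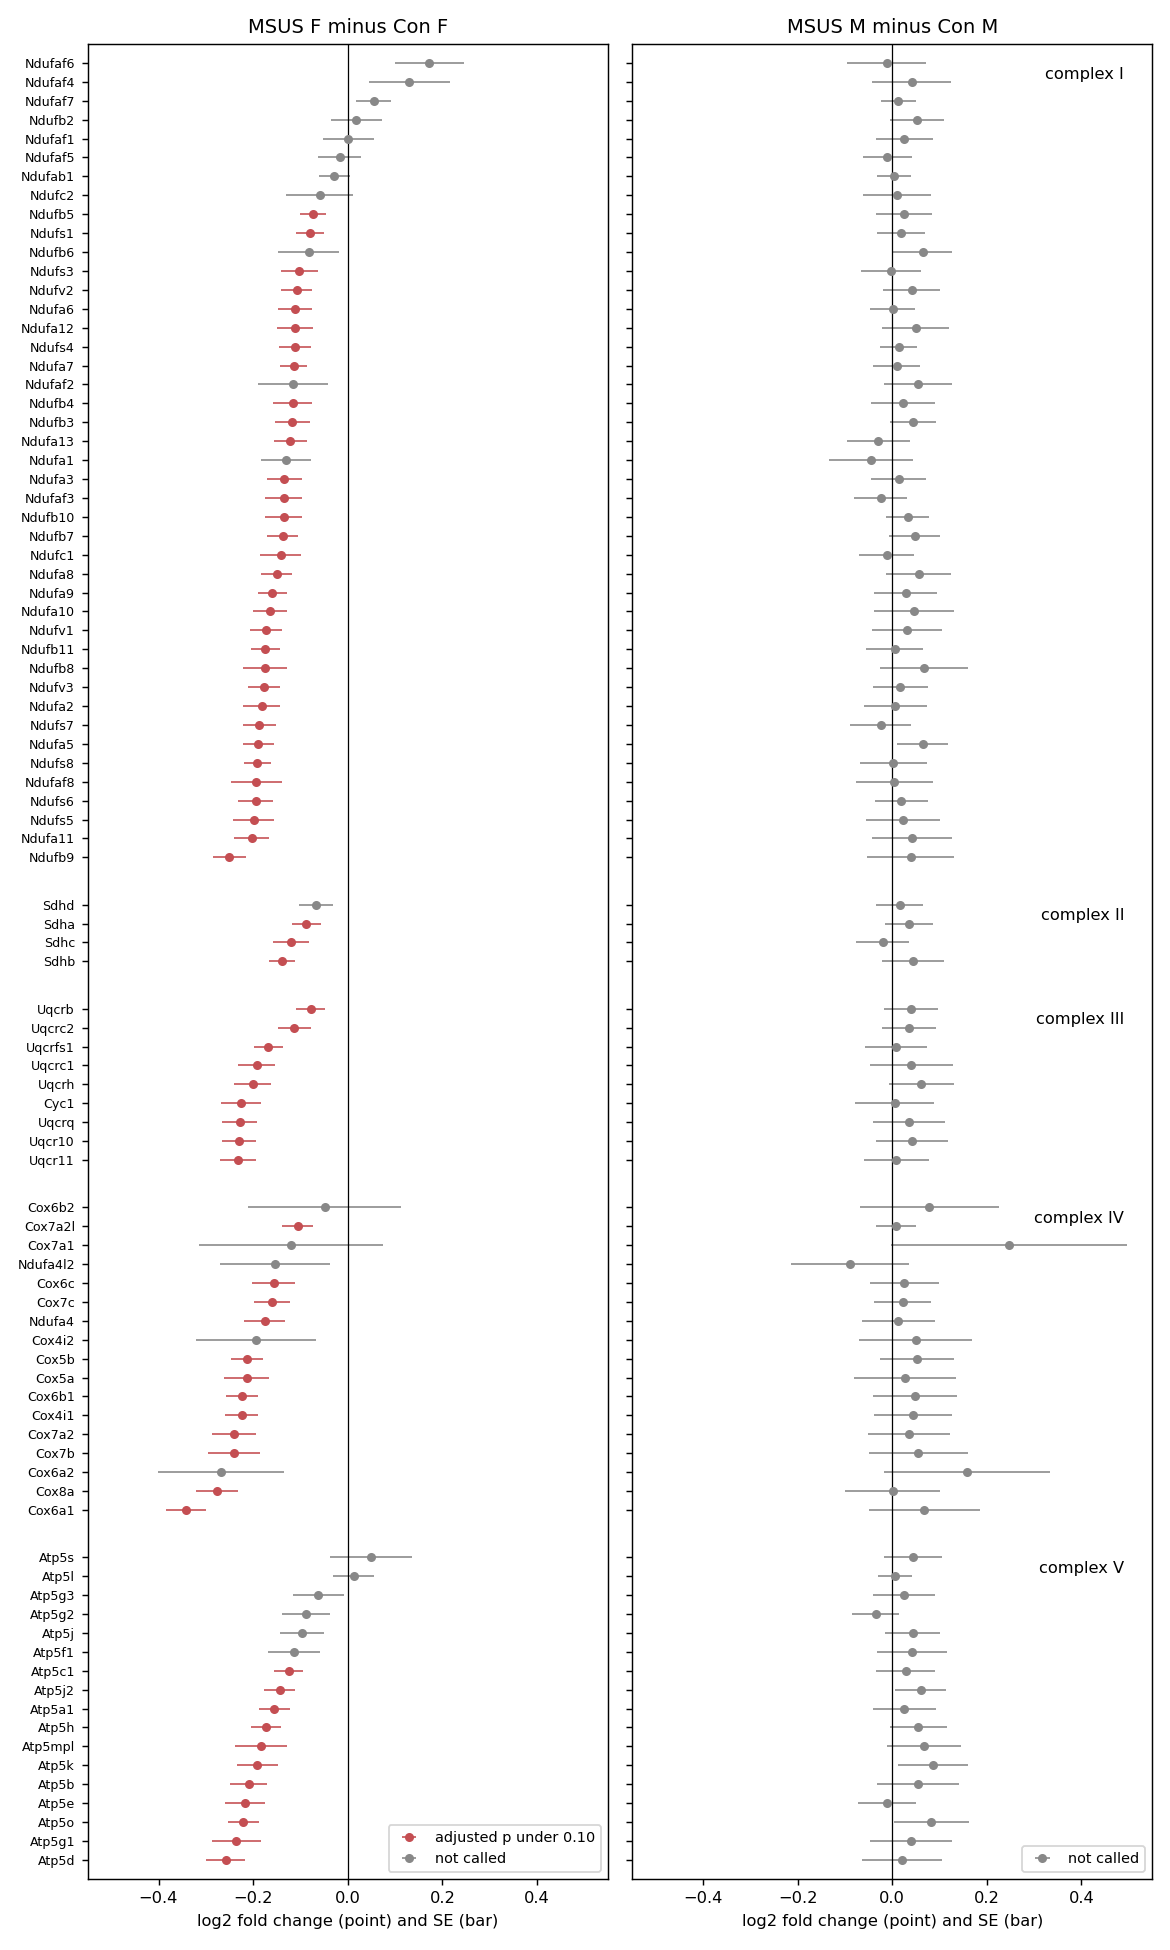
Log2 fold change of 90 of the 91 genes with its standard error, MSUS against Con, in females (left) and males (right), ordered within each complex by the female value. In females 67 points are called, all to the left of 0, from −0.34 for Cox6a1, and in males 0 are, with 78 values above 0.

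The libraries carry numbers, and each group has 3 in the set 1 to 12 and 3 in the set 13 to 24. Within the first set the median log2 fold change of the members in females was −0.17 and within the second −0.13, with 87 and 81 of 91 values below 0. With 3 against 3 animals, 0 members were called in either set by edgeR, and 52 and 50 had an unadjusted p under 0.05, against 17.7% and 16.4% of all genes in the same fits. In males the medians were −0.05 in the first set and 0.11 in the second, with 0 members called in either, so the direction in males differed between the sets. An unadjusted p under 0.05 was found for 0 members in the first set and 11 in the second, against 1.41% and 7.12% of all genes.

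Sex differences were compared in Con and in MSUS animals. The Con comparison shares its Con females with the female comparison of MSUS and Con, so the values are given side by side and are not independent. In Con animals 8 members were called higher in females and 0 lower by edgeR's quasi-likelihood test, against 0.799% of 20641 genes called higher and 1.84% lower. They were Atp5d, Atp5e, Uqcr10, Uqcr11, Uqcrq, Cox6a1, Ndufa2 and Ndufs6. Con females had 107 ± 4.82 CPM of Atp5d, and Con males 91.5 ± 6.52 CPM (SD, n = 6; log2 fold change 0.23, SE 0.051, adjusted p = 0.0736), and its female value for MSUS was −0.26. Cox6a1 was at 131 ± 6.89 and 108 ± 13.4 CPM (0.29, SE 0.074, adjusted p = 0.0885). For 9 members every Con female lay above every Con male, against 0.848% of all genes, and 48 had an unadjusted p under 0.05, against 17.8%. Values were below 0 for 5 of the 91, against 46.4% of all genes, with a median of 0.11 and of 0.01 over all genes. The 8 calls were not stable. Without 1 animal the count ran from 0 to 23. It was 0 without any 1 of Con females 1, 2, 4 and 5 or of Con males 1, 3, 4 and 6. It was 23 without Con male 5, where 6.70% of all genes were called. DESeq2 called 23, all higher in females. It called 7.32% of all genes in either direction, with 4.525% of all genes called lower in females. Cortical markers had a median of 0.95 in this comparison, with 0 of 9 called. With the no-gene share as a covariate 0 were called and the median was −0.002.

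In MSUS animals 0 members were called between the sexes, against 0.135% of 20714 genes, and 7 had an unadjusted p under 0.05, all lower in females, against 7.29% of all genes. DESeq2 also called 0. The median log2 fold change was −0.08, with 84 of 91 values below 0, against 51.3% of all genes. In the same comparison the markers of mature oligodendrocytes had a median of −0.28, with 1 of 6 called lower and summed levels that did not overlap, 3431 to 4194 CPM in the females and 4319 to 5199 CPM in the males. Cortical markers had a median of −1.22 with 0 of 9 called. The part of the cortical markers in the members' values was not tested beyond the covariate fits, where 0 members were called and the median was −0.04 with the cortical score. The part of the oligodendrocyte markers was not tested, as no fit held a score of them. Uqcr11 was at 60.6 to 67.0 CPM in MSUS females and 54.9 to 73.1 in MSUS males, and Atp5d at 82.7 to 94.0 and 77.5 to 112 CPM, so the MSUS females lay within the range of the males for both.

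The group-by-sex interaction was fitted over all 24 animals, as the change with MSUS in females minus that in males. No member was called, nor was any of the 21500 genes (0%), by edgeR's quasi-likelihood test, and the smallest adjusted p of a member was 0.200. At an unadjusted p under 0.05 there were 56 members, all below 0, against 18.7% of all genes, and 87 members had values below 0, against 50.9%. They were 24 of 44 in complex I, 2 of 4 in complex II, 8 of 9 in complex III, 11 of 17 in complex IV and 11 of 17 in complex V. Ndufa5 had the smallest p (log2 difference −0.26, SE 0.062, adjusted p = 0.200), followed by Atp5o (−0.31, SE 0.088) and Atp5h (−0.23, SE 0.068). The count depended on 1 library. Without MSUS male 1, whose no-gene share was the highest, 62 members were called, all below 0, while 5.72% of all genes were called below 0 and 14.0% in either direction. Leaving out any other animal gave 0 members. DESeq2 called 9 members over all 24 animals, all below 0, and 0.577% of all genes below 0. With the no-gene share as a covariate 0 were called and the median log2 difference was 0.01 instead of −0.19. The cortical markers had a median log2 difference of −2.19 and the oligodendrocyte markers one of −0.28, with 0 called, and with the cortical score as a covariate the members' median was −0.13.

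The rest of the pathway was read from listed genes. Of the 13 subunits encoded in the mitochondrial genome, 12 were tested in females and 0 were called by edgeR or had an unadjusted p under 0.05, with a median log2 fold change of 0.16 and values from 0.004 to 0.45. Both ends of that range were genes with low counts, mt-Nd4l and mt-Nd3, with mean levels of 0.741 and 0.813 CPM. Low counts, of 3.50 to 6.62 CPM, were also found for mt-Atp6, mt-Co3 and mt-Co2, against 11710 CPM for mt-Co1. The counts leave out pairs with several alignments, so a low count need not mean little RNA. How much each gene lost in this way was not tested. With that limit, the summed level of the mitochondrially encoded subunits was 19418 to 31756 CPM in Con females (median 28271) and 27150 to 33588 in MSUS females (median 30217). Among 13 enzymes of the TCA cycle 10 were called lower in MSUS females, among them citrate synthase, Cs (−0.13), and mitochondrial malate dehydrogenase, Mdh2 (−0.13). Of 7 carriers and channels 6 were lower, including cytochrome c, Cycs (−0.16), the phosphate carrier Slc25a3 (−0.11) and the outer membrane channel Vdac1 (−0.14). Among the mitochondrial ribosomal proteins 24 of 77 were lower and 0 higher, with a median of −0.08.

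Of 38 assembly factors outside the rule, 8 were lower and 2 higher in MSUS females, a share close to the 25.1% of all genes called. Coa3 (−0.20), Cox14 (−0.17) and Cox10 (−0.16), all of complex IV assembly, were lower, while the copper chaperone Cox17 (0.29) and Cox16 (0.38) were higher. Of 13 regulators of nuclear respiratory genes, 3 were lower, namely Esrra (−0.17), Yy1 (−0.10) and the mitochondrial RNA polymerase Polrmt (−0.13), and 3 higher, namely Nrf1 (0.11), Gabpb1 (0.13) and Gabpb2 (0.20), beside 11.9% of all genes called lower and 13.1% higher. With 13 genes, nothing about the list is read from these counts. Ppargc1a, the coactivator of mitochondrial biogenesis, had −0.19 and was not called (adjusted p = 0.340), nor was Gabpa (0.06). In males 0 genes of these lists were called, 0 in MSUS animals between the sexes and 0 in the interaction, and in Con animals 3 mitochondrial ribosomal proteins were higher in females.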

How the data were processed

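The authors trimmed read pairs, aligned them with STAR 2.6.1b to mm10 (versions from the submitters' processing notes) with GENCODE M15, and deposited STAR's gene counts, whole numbers that were not normalized, once ignoring strand and once for each strand. Only the sense counts entered the fits. The libraries were depleted of ribosomal RNA and not selected for poly(A). STAR leaves out a pair with several alignments or with exons of several genes beneath it. For 11 members, among them Cox4i1, Cox5a and Atp5o, the count without regard to strand was under 90% of the sense count, as overlapping genes on the other strand then take pairs away. Gene models came from GENCODE M21, which held 52489 of 52636 identifiers. Replicates are separate animals per the labels, and no pair of libraries within a group agreed within counting error. In the study whole litters were assigned to Con or MSUS, and the fits hold no term for litter. Animals of the same litter, if any, were therefore treated as independent, which can make p-values too small.

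Genes were filtered by filterByExpr (minimum count 10), normalized by TMM and tested with edgeR 4.0.16 in R 4.3.3 (robust quasi-likelihood F test, Benjamini-Hochberg, threshold 0.10) on the whole table. Each comparison was fitted on its own 12 animals and the interaction on all 24. Log2 fold changes are MSUS over Con, or female over male. Levels are CPM on effective library sizes over 24 libraries, and RPKM divides by the kilobases of all exons. The no-gene share is the pairs in no exon as a percent of uniquely mapped pairs, counted without regard to strand. Alternatives were DESeq2 1.42.0, its size factors, 2 other filters, counts without strand, a replicate block, library set, the no-gene share, offsets for GC content and length, all animals in 1 fit, a threshold of 0.05 and leaving out 1 animal at a time. A cortical marker score as a covariate, alone or with the no-gene share, and the fits within a library set were added after seeing the data. The fits were tested on simulated data. Python 3.11.15 with pandas 2.3.3, numpy 2.4.6 and matplotlib 3.10.9 made the tables and plots.

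The members and the gene lists were chosen with earlier results of these data known, so a list's direction is not independent evidence. Named genes were core subunits, paralogue sets, X-linked members, the largest change and smallest p in each complex in females, the smallest p in the other comparisons and the highest and lowest levels. Ndufb2, Ndufb6, Ndufc2, Ndufab1, the assembly factors, Atp5l, Atp5j and Atp5f1, the called members of each class and the genes of the pathway lists were named after their values were seen. Estrous stage was left out of the fits, although the study's female model held it, because in the labels some males have a stage and some females have no stage. Sequences are RefSeq promoter windows, and 19 members without a window are not shown there. For 1 member, which the counts and sums include, no value of its own is reported here.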

Additional observations from a re-analysis of the deposited data

Results flagged for a closer look

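In groups of 6 animals, 228 sets of values were examined (the summed levels, the no-gene share and 50 named genes), and in 13 of them the highest or lowest library lay farther from its nearest neighbour, relative to the range of its group, than Dixon's 95% limit. Chance gives about 1 in 20. Con female 3 was the high library in 7 of these. Its summed level of complex IV was 1612 CPM against 1502 CPM for the next Con female. It had 90.18 CPM of Atp5g1 (next 79.33), 84.27 of Cox5a (next 73.32), 1.132 of Cox7a1 (next 0.6749), 102.1 of Cox7b (next 86.63), 9.189 of Ndufaf2 (next 7.689) and 164.3 of Uqcrc1 (next 151.1). Without this animal 63 members were called in females instead of 68, and 22.97% of all genes instead of 25.1%.

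Con female 2 was low, with 601 CPM of Atp5a1 (next 637.3) and 129.4 CPM of Ndufs1 (next 137.4), and Con female 4 was high for Ndufb11, with 47.45 CPM (next 46.01). MSUS female 1 was high for 2 genes of the c-ring, with 77.55 CPM of Atp5g1 (next 68.9) and 126.8 CPM of Atp5g3 (next 117.7), and MSUS female 4 for the other one, with 21.9 CPM of Atp5g2 (next 19.54).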

How the results depend on the processing

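In females, 68 members were called, and 48 to 71 under the 12 settings that kept the count within 1.5 times. With the no-gene share as a covariate, with the cortical score and that share, in libraries 1 to 12 only and in libraries 13 to 24 only, 0 members were called, in every complex. With both covariates Sdha (0.010) and Uqcrc2 (0.012) turned positive and were not called. Complex I had 21 called with the cortical score and 19 with GC and length offsets and the replicate block. Complex II had 1 with no filter, 1 at a threshold of 0.05, 0 with offsets and block, and 1 to 4 with an animal left out, being 1 without MSUS female 2 or 4. Leaving out 1 animal gave 57 to 71 for all members. The Con sex count of 8 became 23 with DESeq2 (7.32% of all genes called in either direction) and 23 with counts ignoring strand (5.78%). It was 5 with no filter (0.925%), 4 with library set (2.27%) and 1 with GC and length offsets (0.2665%). The other settings that moved it gave 0, namely the block (alone or with offsets), the no-gene share and the cortical score (alone or with the share). It was also 0 in 1 fit of all animals, at a threshold of 0.05 and in either library set. With 1 animal left out it was 0 to 23. The interaction count of 0 became 9 with DESeq2 (2.17% of all genes called in either direction) and 11 in libraries 13 to 24 (1.98%). With 1 animal left out it was 0 to 62, with 14.0% of all genes called at 62. The male and MSUS sex counts stayed at 0 under all settings. The cause was not tested. The calls over all genes in females went from 5156 to 3395 with offsets, 1992 with offsets and block, 1852 with the cortical score and 0 with the share. Among named genes, 22 of 1350 female and 188 of 1350 male values changed sign without being called.

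Equal replicate numbers did not mark shared litters in the labels, and same-numbered animals did not deviate together (correlations of −0.245 to 0.252 in females, with 2 of 6 closest to their own number, and −0.373 to 0.256 in males, with 0 of 6). With the replicate block 60 members were called in females, 0 in males and 0 between Con sexes. In the female fit 18.5% of all genes were called, and 8.01% of all genes were called lower.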
